A study of Mus musculus with 4 samples.

Results

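The genes described here act on stored and circulating triglyceride in the heart. They are 10 genes, chosen as a named set of triglyceride lipases, lipid droplet proteins and lipoprotein uptake genes, of 18193 genes that had a probe set annotated to a single symbol. Every probe set annotated to exactly 1 of the 10 symbols was taken, which gave 26 probe sets, and the brightest of each gene over the 4 arrays represents it. No probe set of these genes was shared with another symbol in the annotation. The samples were hearts of 2 transgenic mice, labelled Tg-Sirt1 1 and Tg-Sirt1 2, and of 2 wild type mice, labelled NTg 1 and NTg 2. Total RNA of each heart was hybridised to an Affymetrix expression array, on which a probe set is a group of short probes for 1 transcript. The transgene is named as Sirt1, an NAD-dependent deacetylase, and the sources used here give neither its promoter nor the strain, age or sex of the mice. Both groups are labelled only as transgenic and wild type, and no treatment is named.

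The heart burns fatty acids that reach it mainly as triglyceride in lipoproteins or as free fatty acids. Lipoprotein lipase on the capillary wall releases fatty acids from lipoproteins, and the VLDL receptor takes part in their uptake. Inside the cell the DGAT enzymes join the last fatty acid to make triglyceride, which is kept in lipid droplets coated by perilipins. Lipolysis then proceeds in steps: adipose triglyceride lipase, helped by its coactivator ABHD5, removes the first fatty acid, hormone-sensitive lipase the next and monoglyceride lipase the last.

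The arrays labelled Tg-Sirt1 1 and NTg 1 were nearly the same measurement, although their labels put them in different groups. Their values differed with an SD of 0.0759 log2 units over 45037 probe sets, against 0.342 to 0.405 in the other 5 pairs of arrays. At the 10 genes this pair differed by at most 0.05, and at 23 of the 26 probe sets by no more than 0.1. Because of this, every difference between the labels below is close to the mean of a near-zero difference and the difference between Tg-Sirt1 2 and NTg 2, and the test had very little power. The Sirt1 probe set gave 7.16 and 7.93 under the Tg-Sirt1 label (arrays 1 and 2), against 7.30 and 7.17 under the NTg label, so 1 of the 2 arrays labelled as transgenic did not show a higher value. No array was moved to another group, and an array name below means the array labelled so, which also holds for every direction given. The tissue label was borne out by 12 of 12 cardiomyocyte markers, which read between 12.24 and 14.20 on the 4 arrays. In whole heart RNA, fewer cells of a type and less RNA per cell cannot be told apart.

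None of the 10 genes passed the test between the labels, yet 9 of them had a lower mean on the arrays labelled Tg-Sirt1 than on those labelled NTg. The exception was Abhd5. Among the 9, Plin2 and Dgat1 were nearly level, with log2 fold changes of -0.01 and -0.04. A lower Tg-Sirt1 mean was found at 45.8% of all genes. The median log2 fold change was -0.285 for the 10 genes and 0.015 for all genes. The 10 genes were chosen with earlier results of these data known, so these counts and medians are a description. The median of the 10 was -0.181 when the probe sets of each gene were averaged. Markers of other cell types moved between the same arrays. Fibroblast markers were on average higher under the Tg-Sirt1 label at 8 of 8 genes (median 0.26), with a summed linear signal of 26125 and 19408 on the Tg-Sirt1 arrays, against 26121 and 14253 on the NTg arrays. Of 8 macrophage and monocyte markers 5 were higher (median 0.178), with sums of 6625 and 6149 on the Tg-Sirt1 arrays, against 6620 and 4857 on the NTg arrays. Both sums were lowest on NTg 2, and their part in the values of the 10 genes was not tested. In limma, 0 of the 26 probe sets had an adjusted p under 0.05, against 0% of all 45037 probe sets, and 0 had an unadjusted p under 0.05, against 0.0622% of all. The lowest unadjusted p among the 26 was 0.126 and the lowest adjusted p in limma was 0.996. The smallest two-sided p that an exact permutation of 2 against 2 arrays allows is 0.33. A p that misses the threshold does not show that these genes were at the same level.

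**Figure D1:**
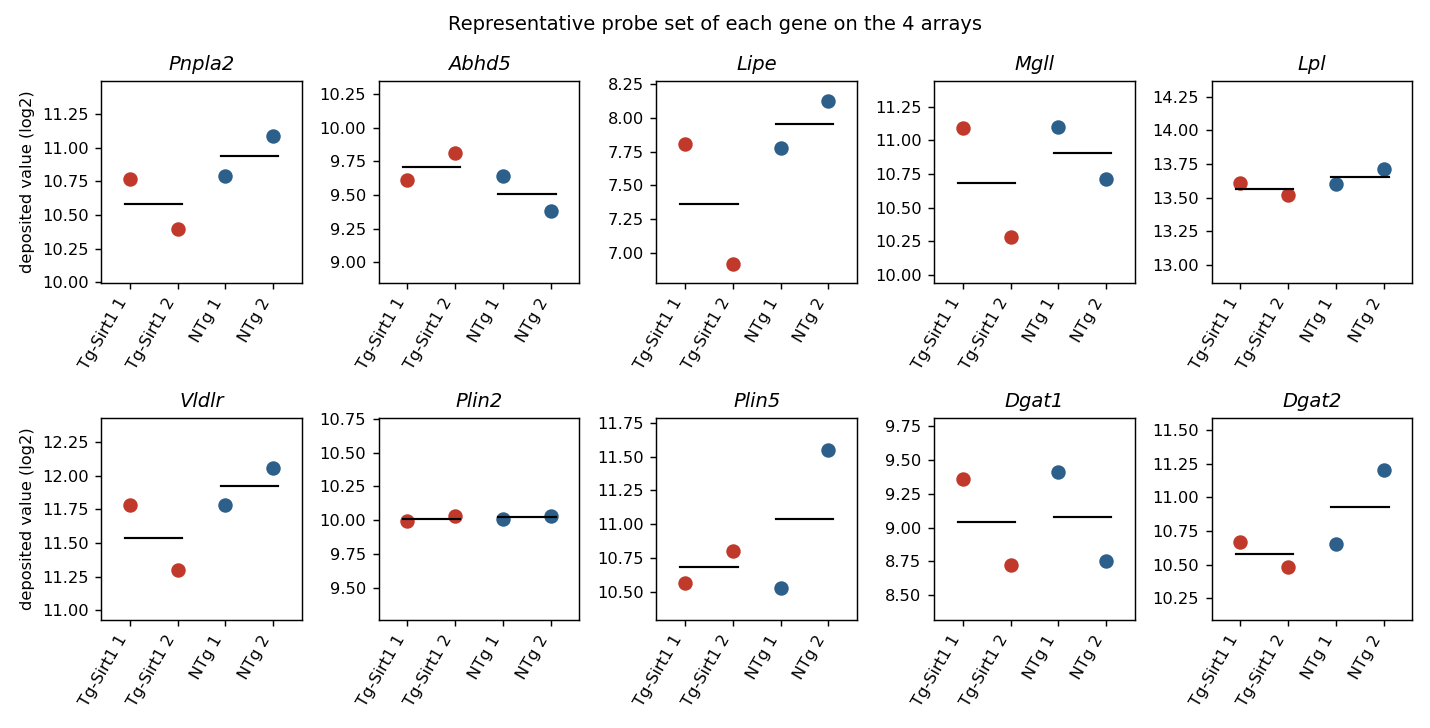
Deposited log2 value of the representative probe set of each of the 10 genes on the 4 arrays, with Tg-Sirt1 in red and NTg in blue, and a line at the mean of each label. Each panel spans 1.5 log2 units, and levels cannot be compared between panels, since probe sets differ in their response. Tg-Sirt1 1 and NTg 1 read almost the same in every panel, and the spread comes from Tg-Sirt1 2 and NTg 2.

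The promoters of the genes that shared 1 order of arrays are shown first. The 5 genes lowest on Tg-Sirt1 2 and highest on NTg 2 were Lipe, Pnpla2, Lpl, Vldlr and Dgat2. That order was found at 12.2% of all genes. RefSeq windows from 250 bases before to 50 bases after a gene's start, on the mouse build GRCm38.p6, were used for Lipe, Pnpla2 and Vldlr among these 5, and for 7 of the 10 genes in all; those of Lpl, Dgat1 and Dgat2 were not used. Capitals mark matches on either strand to 4 short motifs: the nuclear receptor hexamer AGGTCA, the E-box CACGTG, the forkhead core GTAAACA and the GC box GGGCGG. Each sequence reads 5′ to 3′ on the gene's own strand.
Lipe, upstream start, chr7:25395938-25396237, minus strand: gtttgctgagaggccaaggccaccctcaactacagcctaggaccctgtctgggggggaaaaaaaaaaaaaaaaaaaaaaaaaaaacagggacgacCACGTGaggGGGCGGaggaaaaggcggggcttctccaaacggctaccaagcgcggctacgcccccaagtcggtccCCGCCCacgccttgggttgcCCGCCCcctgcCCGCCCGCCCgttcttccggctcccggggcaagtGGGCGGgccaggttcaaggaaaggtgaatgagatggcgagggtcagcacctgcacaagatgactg
Lipe, downstream start, chr7:25390063-25390362, minus strand: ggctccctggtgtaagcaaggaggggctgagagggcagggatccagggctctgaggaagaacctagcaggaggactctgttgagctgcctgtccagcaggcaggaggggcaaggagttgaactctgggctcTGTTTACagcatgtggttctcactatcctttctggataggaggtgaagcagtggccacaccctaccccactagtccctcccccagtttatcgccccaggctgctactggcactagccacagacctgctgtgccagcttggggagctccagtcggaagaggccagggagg
Pnpla2, chr7:141454938-141455237, plus strand: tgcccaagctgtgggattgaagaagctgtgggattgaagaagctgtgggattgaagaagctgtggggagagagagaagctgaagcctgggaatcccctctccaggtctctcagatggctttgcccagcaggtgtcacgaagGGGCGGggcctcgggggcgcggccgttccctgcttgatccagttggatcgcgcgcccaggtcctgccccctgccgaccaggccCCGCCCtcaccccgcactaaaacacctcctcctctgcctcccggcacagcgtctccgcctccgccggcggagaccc
Vldlr, upstream start, chr19:27216234-27216533, plus strand: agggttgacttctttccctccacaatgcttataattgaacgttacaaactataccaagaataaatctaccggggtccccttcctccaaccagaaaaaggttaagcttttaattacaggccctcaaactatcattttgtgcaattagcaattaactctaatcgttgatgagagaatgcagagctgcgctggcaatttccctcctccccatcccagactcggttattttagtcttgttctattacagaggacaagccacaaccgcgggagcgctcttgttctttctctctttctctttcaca
Vldlr, downstream start, chr19:27216770-27217069, plus strand: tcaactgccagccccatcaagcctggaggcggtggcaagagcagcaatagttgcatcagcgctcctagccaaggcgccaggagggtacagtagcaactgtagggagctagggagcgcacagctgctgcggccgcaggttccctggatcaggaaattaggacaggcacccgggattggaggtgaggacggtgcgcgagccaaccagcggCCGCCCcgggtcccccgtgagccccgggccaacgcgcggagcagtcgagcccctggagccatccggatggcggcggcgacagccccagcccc

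These 3 genes shared no motif other than the GC box. The upstream Lipe window held 1 E-box and 6 GC boxes, 2 of them overlapping each other, while the downstream Lipe window held 1 forkhead core. Pnpla2 had 2 GC boxes and the downstream Vldlr window 1, and the upstream Vldlr window had none of the 4 motifs. Over 32851 promoter windows of this length, 35.7% held a GC box, 16.3% the hexamer, 7.15% the E-box and 3.65% the forkhead core. Of the 11 windows of the gene set, 9 held a GC box, 4 the hexamer, 3 the E-box and 2 the forkhead core. Windows of 1 gene can overlap, and a match describes these letters and does not show that a factor binds there.

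Among the lipolysis genes, Lipe and Pnpla2 shared 1 order of arrays, whereas Abhd5 had the opposite order and Mgll was low on both Tg-Sirt1 2 and NTg 2. Pnpla2, which encodes adipose triglyceride lipase, the enzyme of the first step, read 10.77 and 10.40 on Tg-Sirt1 1 and Tg-Sirt1 2, against 10.79 and 11.09 on NTg 1 and NTg 2. Of the 10 genes it was the only one whose groups did not overlap, by a margin of 0.02 between the near-identical arrays, and 9.3% of all genes lay wholly lower in Tg-Sirt1. The fold change of Pnpla2 was -0.355 log2 units (SE 0.194, 95% confidence interval -0.852 to 0.142, limma adjusted p = 0.996). The dim other probe set of Pnpla2 read 5.51 and 5.66 on the Tg-Sirt1 arrays, against 5.51 and 5.65 on the NTg arrays, and so showed no such order.

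Lipe, the gene of hormone-sensitive lipase, had the widest spread of the 10 representative probe sets, at 1.21 log2 units. Vldlr probe set 1438258_at and Mgll probe set 1453836_a_at, which are not representatives, spanned 1.62 and 1.43. The Lipe representative read 7.81 and 6.92 on Tg-Sirt1 1 and Tg-Sirt1 2, against 7.78 and 8.13 on NTg 1 and NTg 2. Relative to the mean of the near-identical pair, Tg-Sirt1 2 stood at -0.875 log2 units and NTg 2 at 0.335. The groups overlapped through the pair. The means were 7.365 ± 0.629 in Tg-Sirt1 and 7.955 ± 0.247 in NTg (SD, n = 2 each), a log2 fold change of -0.59 with an SE of 0.324. Its dim probe set read between 4.92 and 5.19 on the 4 arrays, with a log2 fold change of 0.035, and averaging the 2 gave -0.278. Lipe is far higher in fat than in heart, so adipocyte markers were read beside it. Of 12 adipocyte markers, 9 were measured, and their summed linear signal was 2878 and 1730 on the Tg-Sirt1 arrays, against 2854 and 1500 on the NTg arrays. The adipokine gene Adipoq read 7.56 and 6.79 on the Tg-Sirt1 arrays and 7.50 and 5.92 on the NTg arrays. The adipokine gene Lep and the fat droplet gene Cidec read only 4.39 to 4.79 on the 4 arrays, below the median of each array. Car3 made up much of the sum, and without it the other 8 markers summed to 1347 and 801 on the Tg-Sirt1 arrays, against 1334 and 959 on the NTg arrays. Which of Tg-Sirt1 2 and NTg 2 was lower thus turned on Car3. Of the 9 markers, 4 were lowest on Tg-Sirt1 2 as Lipe was (Cidec, Ucp1, Cidea and Slc7a10), 2 were highest on NTg 2 as Lipe was (Retn and Slc7a10), and Adipoq and Car3 were lowest on NTg 2. Of these, Slc7a10 read 5.52 to 5.99 on the 4 arrays, below the median of each array, as Cidec did. The brown fat gene Ucp1 read 7.34 and 5.97 on the Tg-Sirt1 arrays, against 7.26 and 6.23 on the NTg arrays. Their part in the values of Lipe, Pnpla2 and Dgat2 was not tested.

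The coactivator gene Abhd5 read 9.61 and 9.81 on Tg-Sirt1 1 and Tg-Sirt1 2, against 9.64 and 9.38 on NTg 1 and NTg 2. It was highest where Pnpla2 was lowest and lowest where Pnpla2 was highest. Its log2 fold change was 0.20 (SE 0.161), and the groups overlapped. The other Abhd5 probe sets gave -0.055 and 0.05, and the brighter of them read 8.48 and 8.07 on the Tg-Sirt1 arrays, against 8.50 and 8.16 on the NTg arrays. The Abhd5 probe sets therefore disagreed on where Tg-Sirt1 2 stood.

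Mgll, which encodes the lipase of the last step, was lower on the 2 arrays outside the near-identical pair than on the pair itself. Its representative read 11.09 and 10.28 on the Tg-Sirt1 arrays, against 11.10 and 10.71 on the NTg arrays. A dimmer probe set, 1453836_a_at, showed the same with larger gaps: 9.04 and 7.61 on the Tg-Sirt1 arrays, against 9.01 and 8.03 on the NTg arrays. All 3 Mgll probe sets with a mean of at least 8 had this order. Differences between the labels were correspondingly small beside the spread within each label. For the representative it was -0.22 (SE 0.308). At 1453836_a_at and at Vldlr probe set 1438258_at Tg-Sirt1 2 lay over 2-fold below the near-identical pair, the 2 of the 26 probe sets that did so, and a 2-fold difference either way was found at 2.05% of all probe sets.

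Of the uptake genes, Lpl was nearly level at its brightest probe set and Vldlr was lower on Tg-Sirt1 2 at only some of its probe sets. Lpl, the gene of lipoprotein lipase, read 13.61 and 13.52 on the Tg-Sirt1 arrays, against 13.60 and 13.71 on the NTg arrays. Its log2 fold change was -0.09 with a 95% confidence interval from -0.428 to 0.248. The other Lpl probe set read 13.08 and 12.57 on the Tg-Sirt1 arrays, against 13.06 and 13.16 on the NTg arrays, so that Tg-Sirt1 2 was again the low array, with a log2 fold change of -0.285.

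Vldlr, the VLDL receptor gene, had 6 probe sets, the most of the 10 genes. Its representative, 1434465_x_at, read 11.78 and 11.30 on the Tg-Sirt1 arrays, against 11.78 and 12.06 on the NTg arrays. The log2 fold change was -0.38 with an SE of 0.214. The groups met at the pair's shared value of 11.78. Probe set 1438258_at read 9.57 and 8.23 on the Tg-Sirt1 arrays, against 9.55 and 9.85 on the NTg arrays, with Tg-Sirt1 2 far below the rest. At 1435893_at, by contrast, the Tg-Sirt1 arrays read 10.75 and 10.79, against 10.74 and 11.20 on the NTg arrays, and only NTg 2 stood apart. Tg-Sirt1 2 was lowest at 3 of the 6 Vldlr probe sets and NTg 2 highest at 4. The single probe set of the 26 that lay wholly higher in Tg-Sirt1 was also one of Vldlr, 1442169_at, with 9.34 and 9.43 on the Tg-Sirt1 arrays, against 9.30 and 9.10 on the NTg arrays. Such separation upward was found at 9.59% of all probe sets. Which part of the transcript each probe set reads was not analysed here.

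The arrays also differed in the share of 5′ signal. The 3′ minus 5′ difference of the Actb control was 1.25 and 1.92 log2 units on Tg-Sirt1 1 and Tg-Sirt1 2, against 1.22 and 1.44 on NTg 1 and NTg 2. For Gapdh it was 0.19 and 1.34 on the Tg-Sirt1 arrays, against 0.18 and 0.69 on the NTg arrays. A larger difference means less signal from the 5′ end. Tg-Sirt1 2, followed by NTg 2, thus had the least 5′ signal. The 3 bright Mgll probe sets, the bright Dgat1 one and Abhd5 probe set 1417566_at were low on both arrays, lowest on Tg-Sirt1 2. At Dgat1 the 2 arrays were nearly equal, at 8.72 on Tg-Sirt1 2 and 8.75 on NTg 2. The dim Mgll probe set was instead highest on NTg 2, at 5.18. Vldlr, Lipe, Pnpla2 and Dgat2 at their representatives were lowest on Tg-Sirt1 2 and highest on NTg 2. The drop on Tg-Sirt1 2 from the near-identical pair differed between probe sets of 1 gene. It was -0.18 and -0.79 at Dgat2, and -0.085 and -0.5 at Lpl. The part of the 5′ signal in the values of the 10 genes was not tested.

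**Figure D2:**
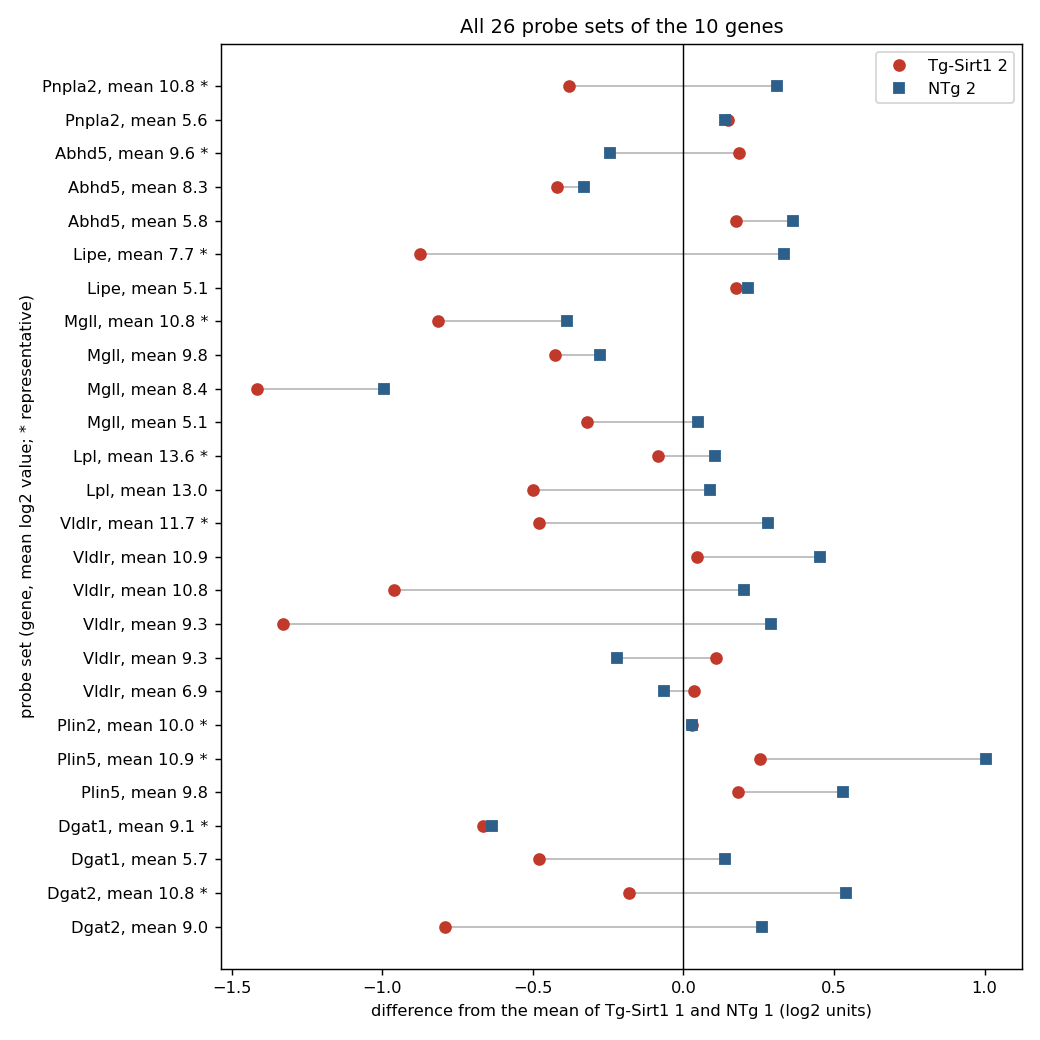
Difference of Tg-Sirt1 2 (red circles) and NTg 2 (blue squares) from the mean of Tg-Sirt1 1 and NTg 1, in log2 units, for each of the 26 probe sets, listed by gene and mean log2 value, with a star at the representative. The 3 bright Mgll probe sets, the bright Dgat1 one and the Abhd5 one of mean 8.3 lie left of 0 on both arrays. Plin5 lies right of 0 on both. Red circles lie left of 0 and blue squares right of it at the representatives of Lipe and Pnpla2, both Lpl and both Dgat2 probe sets. The same holds at 3 of the 6 Vldlr probe sets and at the dim Mgll and Dgat1 ones.

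The coat genes differed from each other. Plin2, the perilipin found on droplets of most tissues, was flat: it read 9.99 and 10.03 on the Tg-Sirt1 arrays, against 10.01 and 10.03 on the NTg arrays. Its range of 0.04 over the 4 arrays compares with a median range of 0.34 over all genes and of 0.705 over the 10. Its log2 fold change of -0.01 had a 95% confidence interval from -0.33 to 0.31, and its only probe set gives no second reading. Plin5, the perilipin of oxidative tissues, which holds droplets close to mitochondria, was high on NTg 2 alone. It read 10.56 and 10.80 on the Tg-Sirt1 arrays, against 10.53 and 11.55 on the NTg arrays. NTg 2 stood 1.005 log2 units above the near-identical pair, the only difference over 2-fold between NTg 2 and the pair among the 26 probe sets, and such a difference was found at 1.25% of all probe sets. The other Plin5 probe set had the same order, at 9.65 and 9.82 on the Tg-Sirt1 arrays, against 9.63 and 10.17 on the NTg arrays. Without NTg 2 the log2 fold change of Plin5 was 0.15, against -0.36 with all arrays (SE 0.351).

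The DGAT genes, whose unrelated enzymes carry out the same last step of triglyceride synthesis, parted as well. Dgat1 read 9.36 and 8.72 on the Tg-Sirt1 arrays, against 9.41 and 8.75 on the NTg arrays. Both arrays outside the pair were low by a like amount, at -0.665 for Tg-Sirt1 2 and -0.635 for NTg 2 relative to the pair, so that the log2 fold change was -0.04 (SE 0.314) and its sign followed whichever array was left out. The dim other Dgat1 probe set read 5.79 and 5.31 on the Tg-Sirt1 arrays, against 5.79 and 5.93 on the NTg arrays. Dgat2 instead had the order of Lipe. It read 10.67 and 10.48 on the Tg-Sirt1 arrays, against 10.65 and 11.20 on the NTg arrays, with a log2 fold change of -0.35 and a 95% confidence interval from -0.914 to 0.214. Its other probe set read 9.13 and 8.32 on the Tg-Sirt1 arrays, against 9.09 and 9.37 on the NTg arrays. The order of arrays was thus the same at both Dgat2 probe sets, with Tg-Sirt1 2 further down at the dimmer of them.

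Grouped by role, the fold changes overlapped. In the 4 lipolysis genes the log2 fold change ran from -0.59 to 0.20 with 3 lower, in the 2 uptake genes from -0.38 to -0.09, in the 2 coat genes from -0.36 to -0.01 and in the 2 DGAT genes from -0.35 to -0.04. Tg-Sirt1 2 was the lowest array at 7 of the 10 genes, a pattern found at 23.2% of all genes, and NTg 2 the highest at 6 of the 10, against 34.3% of all genes. A lower Tg-Sirt1 mean was found at 21 of the 26 probe sets, against 53.1% of all probe sets. Over all 26 probe sets, each of these counts was 16, against 29.2% and 38.5% of all probe sets. Probe sets of 1 gene share a transcript and are not separate observations. Tg-Sirt1 2 was also the lowest array at 9 of the 12 cardiomyocyte markers, and NTg 2 the highest at 0. Their summed linear signal was 171710 and 154368 on the Tg-Sirt1 arrays, against 172032 and 162732 on the NTg arrays. All 10 genes read above the median of every array, whereas the shares of all genes include dim ones. The part of this in the values of the 10 genes was not tested. Relative to the near-identical pair, the median of the 10 genes was -0.28 on Tg-Sirt1 2 and 0.193 on NTg 2, and that of all genes was 0.04 and -0.005. Between Tg-Sirt1 2 and NTg 2, 4 of the 26 probe sets lay over 2-fold apart, 2 of Vldlr and 1 each of Lipe and Dgat2, against 2.44% of all probe sets. The test of a difference between 2 single arrays is not possible, and these are values of 1 heart each.

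**Figure D3:**
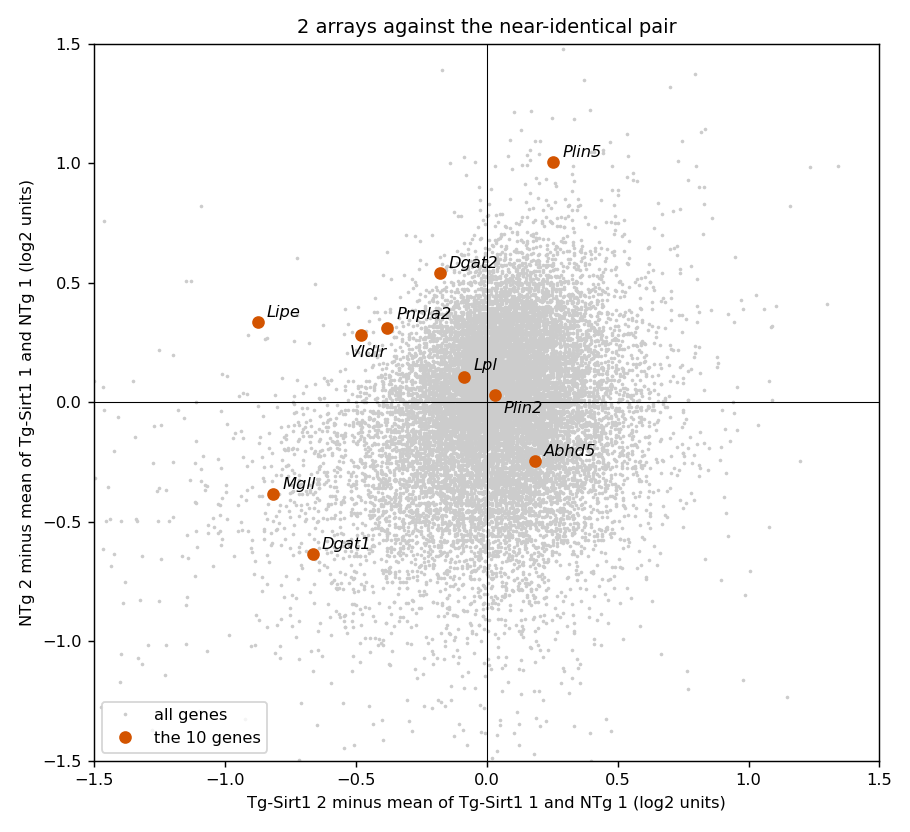
Each point is a gene, with the difference of Tg-Sirt1 2 from the mean of Tg-Sirt1 1 and NTg 1 on the horizontal axis and that of NTg 2 on the vertical axis, both in log2 units. The axes end at 1.5 either way, which leaves out 107 genes. Lipe, Vldlr, Pnpla2, Dgat2 and Lpl lie in the upper left, low on Tg-Sirt1 2 and high on NTg 2, while Mgll and Dgat1 lie in the lower left, Plin5 in the upper right and Abhd5 in the lower right.

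By likeness of pattern over the 4 arrays, the genes nearest to Lipe were Med16, Gpd1, Slc25a27, Tes and Son. The distance, taken over the 4 values after each gene's mean was subtracted, was 0.052 log2 units for Med16, 0.073 for Gpd1 and up to 0.164 for Son. Gpd1, the cytosolic glycerol-3-phosphate dehydrogenase gene, read 8.61 and 7.76 on the Tg-Sirt1 arrays, against 8.59 and 8.87 on the NTg arrays. Med16 read 8.59 and 7.68 on the Tg-Sirt1 arrays, against 8.59 and 8.87 on the NTg arrays. With 4 arrays, of which 2 are nearly equal, many genes can come this close.

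The surrounding pathway was read from 4 further lists, and none of their genes passed the test. Among lipid droplet proteins, 17 of 18 were measured, 6 with a higher and 11 with a lower Tg-Sirt1 mean (median -0.08). Plin3, a perilipin that also occurs free in the cytosol, read 9.74 and 8.60 on the Tg-Sirt1 arrays, against 9.72 and 10.24 on the NTg arrays, the order seen at Lipe. Plin4 followed Plin5, with 10.86 and 10.91 on the Tg-Sirt1 arrays, against 10.86 and 11.65 on the NTg arrays. In the other direction, Acsl3, a droplet-associated acyl-CoA synthetase gene, read 6.96 and 7.35 on the Tg-Sirt1 arrays, against 6.95 and 5.57 on the NTg arrays. The seipin gene Bscl2, needed for droplet formation, had a log2 fold change of 0.225. G0s2, the inhibitor of adipose triglyceride lipase, was not among the 4 lowest p values of the list but bears directly on Pnpla2. It read 9.08 and 8.79 on the Tg-Sirt1 arrays, against 9.10 and 8.93 on the NTg arrays.

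Of the partners of lipoprotein lipase, other lipases and lipoprotein receptors, 17 of 21 were measured, with 5 higher, 11 lower and 1 at 0 (median -0.125). NTg 2 was the highest array at 10 of the 17, beside the 34.3% of all genes. The same count was 6 of 17 for droplet proteins, 3 of 14 for synthesis before DGAT and 4 of 22 for control of lipolysis. Some of the 10 were dim or nearly tied, such as Apob, at 5.92 on Tg-Sirt1 2 and 5.93 on NTg 2. Angptl4, a secreted inhibitor of lipoprotein lipase and a PPAR target, read 6.98 and 7.36 on the Tg-Sirt1 arrays, against 6.97 and 9.22 on the NTg arrays. It was thus high on NTg 2 alone, as Plin5 was. Lpl itself was within 0.19 over the 4 arrays at its brightest probe set and within 0.59 at the other. Gpihbp1, which anchors lipoprotein lipase on capillary endothelium, read 10.24 and 9.95 on the Tg-Sirt1 arrays, against 10.23 and 10.75 on the NTg arrays. The summed linear signal of 8 of 8 endothelial markers was 6473 and 5154 on the Tg-Sirt1 arrays, against 6496 and 4875 on the NTg arrays. Of these 8 markers, 5 were lowest on Tg-Sirt1 2 and 3 were lowest on NTg 2. Only Cdh5 was lowest on Tg-Sirt1 2 and highest on NTg 2 as Gpihbp1 was, and it was nearly flat. Its range over the 4 arrays was only 0.06. The part of the endothelial markers in the values of Gpihbp1 and Lpl was not tested. Lmf1, needed for the folding of lipoprotein lipase, had a log2 fold change of -0.24, and Lipa, the lysosomal acid lipase gene, one of 0.35.

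The steps of triglyceride synthesis before DGAT had 14 of 15 genes measured, 6 higher and 8 lower (median -0.012). Lpin1, a phosphatidate phosphatase gene, read 10.86 and 10.91 on the Tg-Sirt1 arrays, against 10.82 and 10.28 on the NTg arrays, low on NTg 2, unlike Dgat2. Its relatives Lpin2 and Lpin3 had log2 fold changes of 0.195 and -0.195, and the glycerol-3-phosphate acyltransferase gene Gpat4 one of -0.235. Among genes that control lipolysis through hormones and nuclear receptors, 22 of 26 were measured, 13 higher and 9 lower (median 0.09). The nuclear receptor gene Ppara, a regulator of many lipid genes, read 8.98 and 9.18 on the Tg-Sirt1 arrays, against 8.96 and 8.63 on the NTg arrays. It was lowest on NTg 2, where Plin5 and Angptl4 were highest. The related receptor genes Ppard and Pparg were not among the 4 lowest p values of the list, and they differed. Ppard read 8.12 and 8.05 on the Tg-Sirt1 arrays, against 8.14 and 7.95 on the NTg arrays. Pparg was highest on NTg 2, with 7.56 and 7.80 on the Tg-Sirt1 arrays, against 7.54 and 8.02 on the NTg arrays. The part of these receptors in the values of Plin5 and Angptl4 was not tested. The phosphodiesterase genes Pde3b and Pde4d, whose enzymes break down cyclic AMP, had log2 fold changes of 0.27 and 0.42, and Aqp7, a glycerol channel gene, one of -0.26. Each gene named by its p on the 4 lists had an adjusted p of 0.996 in limma.

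**Figure D4:**
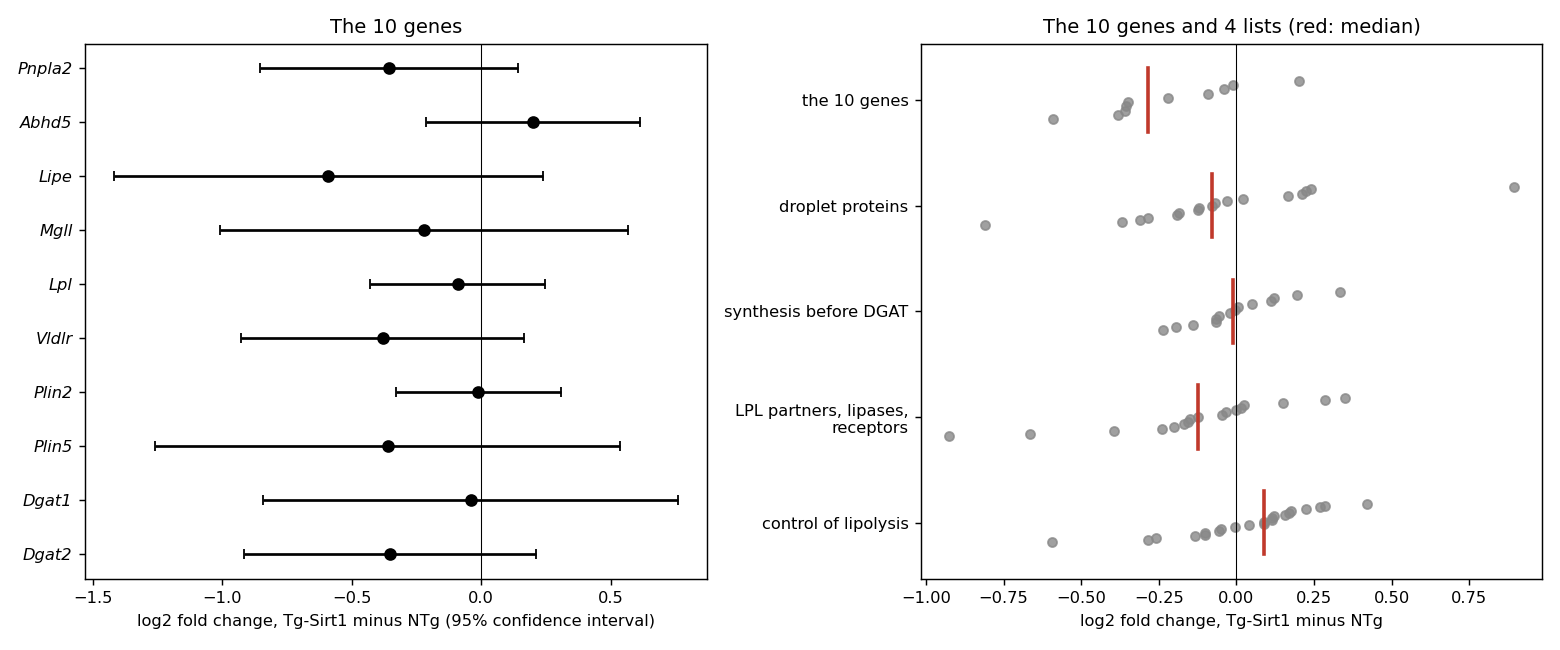
Left, the log2 fold change (Tg-Sirt1 minus NTg) of each of the 10 genes with its 95% confidence interval from limma; all 10 intervals include 0. Right, the log2 fold change of the 10 genes and of each measured gene of the 4 lists, with a red line at the median, which is -0.285 for the 10 genes and between -0.125 and 0.09 for the lists.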

How the data were processed

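Total RNA of 4 mouse hearts was measured on 4 Affymetrix arrays, 2 per label. The deposited values are on the log2 scale with 1 value per probe set and array. Per the submitters' processing notes, the authors used RMA and Affymetrix Expression Console. RMA corrects background, quantile normalizes the arrays and summarises probes, so changes in total RNA are removed and dim differences damped. The signal over background is not known from these values, and the number of arrays limits the precision.

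After 64 control probe sets were left out, 45037 were fitted in limma 3.58.1 (R 4.3.3; lmFit, eBayes), Tg-Sirt1 against NTg, two-sided, with Benjamini-Hochberg adjustment over all of them at 0.05. Per the platform annotation, 34945 had 1 symbol, 932 several and 9160 none here. The 2 residual degrees of freedom were joined by 3.1 from the prior. The fit was also run on simulated data of 4 separate arrays. These held no near-identical pair, so that run does not show how the fit behaves with such a pair.

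The gene set, the lists and the alternatives were chosen with earlier results of these data known. The genes named were the 10, the 4 of smallest p per list, and the 5 nearest to Lipe, the gene of widest range at its representative. G0s2, Ppard and Pparg were named after their values were seen. Replicate numbers do not pair the mice: the labels do not link them, and the correlation of deviations of same-numbered arrays was 0.293, the near-identical pair included.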

Additional observations from a re-analysis of the deposited data

How the results depend on the processing

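No probe set passed the threshold in limma in any of the fits over probe sets, with each array left out, the replicate block, the near-identical pair counted once, a filter on dim probe sets, other normalizations, an offset of 16 or a trend with a robust prior. The count at an unadjusted p under 0.05 was 28 in the reported fit and ran from 0 without Tg-Sirt1 2 to 4314 when Tg-Sirt1 1 and NTg 1 were averaged as a single Tg-Sirt1 array, with a lowest adjusted p of 0.508 there. With the pair counted as NTg it was 2480, with a lowest adjusted p of 0.288. With the replicate number as a block, 0 probe sets passed and the median of the 10 genes was -0.285 again.

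When each array was left out in turn, the number of genes with a higher Tg-Sirt1 mean was 2 to 3 of 10, against 1 with all arrays, and the number whose labels did not overlap was 2 to 8, against 1. The median log2 fold change ran from -0.402 without Tg-Sirt1 1 to -0.092 without Tg-Sirt1 2, and was -0.14 without NTg 2. The range was -0.625 to 0.185 for Mgll, -0.37 to 0.29 for Dgat1, -0.87 to 0.15 for Plin5 and -0.03 to 0.01 for Plin2, so that these 4 genes changed direction. Lipe ran from -1.035 to -0.145, Pnpla2 from -0.54 to -0.17, Vldlr from -0.62 to -0.14 and Dgat2 from -0.625 to -0.075. These fits leave 1 array under a label, which is assumed to vary like the others.

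With the pair averaged as NTg, 2 genes had a higher Tg-Sirt1 mean, 8 did not overlap, and Plin2 was 0.015. With the pair as Tg-Sirt1, 2 were higher, 7 did not overlap, and Dgat1 was 0.302. Fewer arrays make separation easier by construction. After centring on array medians 2 genes were higher, 2 did not overlap and Plin2 was 0.025. A second quantile normalization moved the median from -0.285 to -0.383, with Abhd5 at 0.099 and Plin2 at -0.109. When the probe sets of each gene were averaged, 2 did not overlap, the median was -0.181, Lipe was -0.278, Pnpla2 -0.175 and Dgat1 -0.175. Without _x_at and _s_at probe sets the median was -0.182, with Dgat1 at -0.31, Plin5 at -0.165, Mgll at -0.07 and Vldlr at -0.2. Vldlr was then read at 1435893_at, where Tg-Sirt1 2 was not the lowest array. The replicate block, the variance prior and the dim filter leave every fold change as it was, and in the other 7 settings that kept or averaged all arrays 67 of 70 kept their direction.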
